A study of Mus musculus with 12 samples.

Results

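The genes that encode the proteins of the large (60S) subunit of the cytosolic ribosome were examined in mouse heart. The set held 41 genes out of 21669 counted names, each name being 1 transcript of 1 gene. Members were chosen by name: the standard 60S ribosomal protein genes, with the stalk genes *Rplp0*, *Rplp1* and *Rplp2*. That choice left out *Rpl3*, *Rpl3l*, and the paralog pairs of *Rpl7*, *Rpl22* and *Rpl36a*. The rule itself used no measured value, but earlier results of these data were known when the choice was made.

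Left ventricles came from adult mice of 2 genotypes, wild type (WT) and Rpl3l-/- (KO), the latter lacking the paralog of *Rpl3* that is made in muscle. Each heart lysate was prepared with cycloheximide, a drug that stops ribosomes on the mRNA. Ribosome-protected fragments (RPF, or footprints) were obtained by RNase I digestion and made into small-RNA libraries, while undigested lysate gave poly(A) RNA libraries. The design gave 4 groups of 3 libraries (WT and KO, RNA and footprints), which the submitters call biological triplicates. The strain, the sex and the exact age of the mice, the extent of the deletion beyond the genotype name, and whether an RNA and a footprint library of the same number came from 1 heart are not given in the sources used here. Ventricle is a mixed tissue, and in such bulk samples fewer cells of a type and less RNA per cell cannot be told apart.

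The 60S subunit holds the peptidyl transferase centre and the tunnel through which the new protein leaves. Its ribosomal RNA does the chemistry, and its proteins shape and stabilise the RNA, line the tunnel exit, or form the stalk that recruits translation factors. The mRNAs of nearly all these proteins are TOP mRNAs: they start with a cytosine followed by an unbroken stretch of pyrimidines. TOP mRNAs are known to move between polysomes and a store that is not translated, under control of mTORC1 and the binding protein LARP1, which lets cells adjust all ribosomal proteins together.

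The footprint libraries summed to between 3827862 and 7474602 counts and the RNA libraries to between 6635242 and 8459004. Levels are given as CPM, counts scaled to a common library size by the trimmed mean of M values (TMM) within each assay. Mitochondrially encoded genes took 49.8% to 58.2% of RNA counts and 2.28% to 5.22% of footprint counts. The targeted gene *Rpl3l* lay between 349 and 428 CPM in WT RNA and between 40.8 and 46.4 CPM in KO RNA. In footprints it lay between 193 and 260 CPM in WT and between 4.40 and 12.8 CPM in KO. All 8 cardiomyocyte markers were counted and made up 11.5% of the WT RNA counts outside mitochondrial genes. Markers of atrial cardiomyocytes summed to 1681 to 2615 CPM in WT RNA and 2053 to 4136 CPM in KO RNA, and their part in the results was not tested.

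The members were among the abundant mRNAs of the ventricle but held few footprints. Together they made up 5.99% ± 0.42 (SD, n = 3) of the WT RNA counts outside mitochondrial genes, and 0.521% ± 0.169 of the WT footprint counts. In KO the shares were 6.01% ± 0.37 of RNA and 0.442% ± 0.029 of footprints. Levels between genes were compared per length, RNA per kb of transcript and footprints per kb of coding sequence.

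In WT RNA the highest member was the acidic stalk gene *Rplp1* with 3472 ± 865 CPM per kb (SD, n = 3). *Rpl36* with 1985 ± 508 and *Rpl26* with 1936 ± 516 CPM per kb followed and did not differ beyond their spread. *Rpl26* encodes a protein near the tunnel exit. At the low end stood *Rpl41* with 33.3 ± 13.5 CPM per kb, *Rpl13a* with 2.13 ± 1.73 and *Rpl10*, which had 0 counts in all 12 libraries. A count of 0 allows up to 3 counts of a library's total, or 0.355 to 0.784 CPM before TMM scaling, counting error only. *Rpl10* encodes a protein that joins the 60S subunit late in its assembly, in the cytoplasm.

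In WT footprints the order was another one. *Rpl41*, the shortest member with 78 coding bases, was highest with 768 ± 344 CPM per kb of coding sequence. *Rpl37a* with 609 ± 310 and *Rpl27* with 529 ± 115 CPM per kb came next, and these 3 overlapped within their spread. At the low end, *Rpl9* had 23.2 ± 11.2 CPM per kb, followed by *Rpl13a* with 0.863 ± 0.864 and *Rpl10* with 0. *Rpl41* was thus number 39 of 41 in RNA and number 1 in footprints, each per kb. These orders depend on its lengths, 582 transcript bases and 78 coding bases. Not divided by length, its mean WT footprint level was 59.9 CPM, against 170 CPM for *Rpl37a* and 217 CPM for *Rpl27*.

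**Figure D1:**
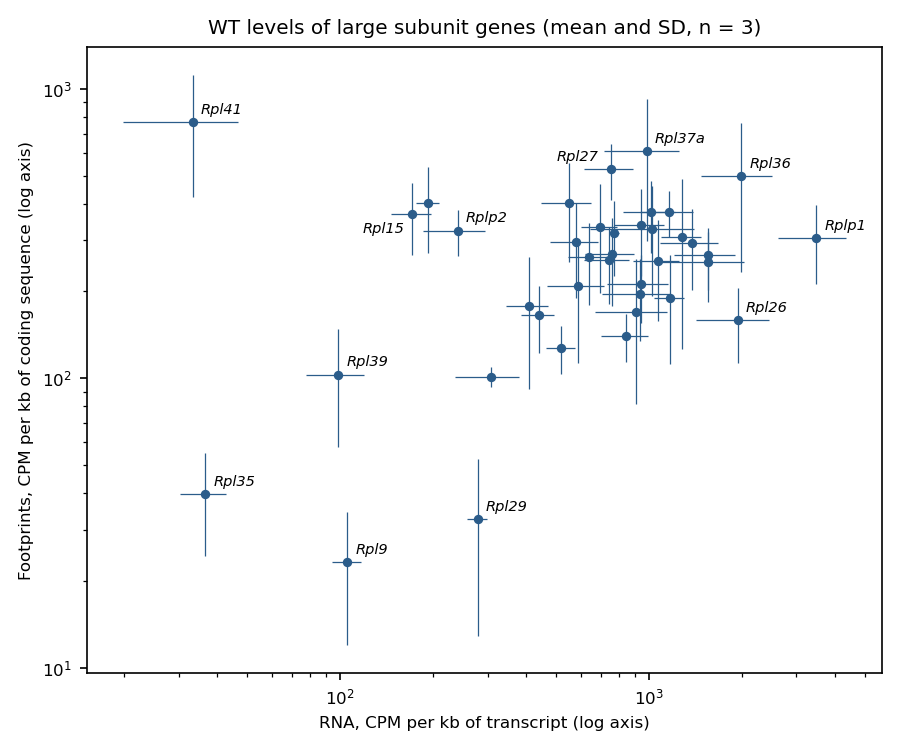
WT levels of the 39 members counted well enough in both assays. The horizontal axis gives RNA in CPM per kb of transcript and the vertical axis footprints in CPM per kb of coding sequence, both logarithmic; points are means and bars SDs of 3 libraries. Rpl41 stands apart at 33.3 in RNA and 768 in footprints, while Rplp1 has the highest RNA level, 3472.

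Several of the lowest levels belonged to genes whose coding sequence recurs elsewhere. Every 28-base window of each coding sequence, about the length of a footprint, was looked up in the coding and noncoding transcripts of GENCODE M21, in which 21428 of the 21669 names were found. For 7 members more than 30% of the windows occurred in another counted transcript: *Rpl10* (100%), *Rpl13a* (97.6%), *Rpl9* (94.9%), *Rpl35* (91.9%), *Rplp2* (82.6%), *Rpl21* (69.7%) and *Rpl29* (56.1%). For 5 of them the other transcript itself had 0 to 2 counts in each library. The partner of *Rplp2*, Wdr89-201, had 9 to 20 footprint counts in each library. The partner of *Rpl21*, BC004004-215, had 435 to 1228 footprint counts in each library. The remaining 34 members had at most 27.5% of windows shared in this way, and 29 had none. How reads with several possible origins were counted is not given in the sources used here, so the levels of these 7 members are uncertain. The same can hold for the other members. Over any annotated gene, counted or not, a median of 99.8% of a member's windows recurred, with a lowest share of 11.4%.

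Once low counts were filtered out, 40 of the 41 members could be tested in RNA and 39 in footprints. *Rpl10* passed in neither assay. *Rpl13a*, with 8 to 33 counts per RNA library and 0 to 8 per footprint library, passed in RNA only.

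Footprints were then set against RNA for each gene, a ratio meant to rank mRNAs by the ribosomes they carry. It also holds any difference between the kits of the assays, so it is not a direct count of ribosomes per mRNA. All 12 libraries were scaled together in 1 edgeR fit, so that the median gene sat near 0, at 0.05 on the log2 scale in WT. These ratios are therefore not the quotients of the CPM values, which were scaled within each assay. In WT edgeR's quasi-likelihood test called 38 of 39 members lower in footprints than in RNA (adjusted p under 0.05) and 0 higher. Among all 8044 genes tested, 35.6% were called lower and 38.3% higher. The member median was -4.02, a log2 difference of -4.07 from that of all genes, or 16.8-fold lower. The gap differed between libraries: with each footprint library set against the RNA library of the same number, it was 31.2-fold, 11.4-fold and 12.5-fold for WT numbers 1 to 3, and 18.3-fold, 21.1-fold and 17.2-fold for KO. These numbers are not known to join libraries of 1 heart.

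The KO ventricles gave the same picture. There 38 of 39 members were again called lower and 0 higher, against 34.7% and 37.9% of all genes, and the member median was -4.33. Both contrasts come from 1 fit but use different libraries. Across the 39 members, WT and KO ratios followed each other with a Pearson r of 0.98 and a Spearman rho of 0.97, which describes genes within shared libraries and not replicates.

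**Figure D2:**
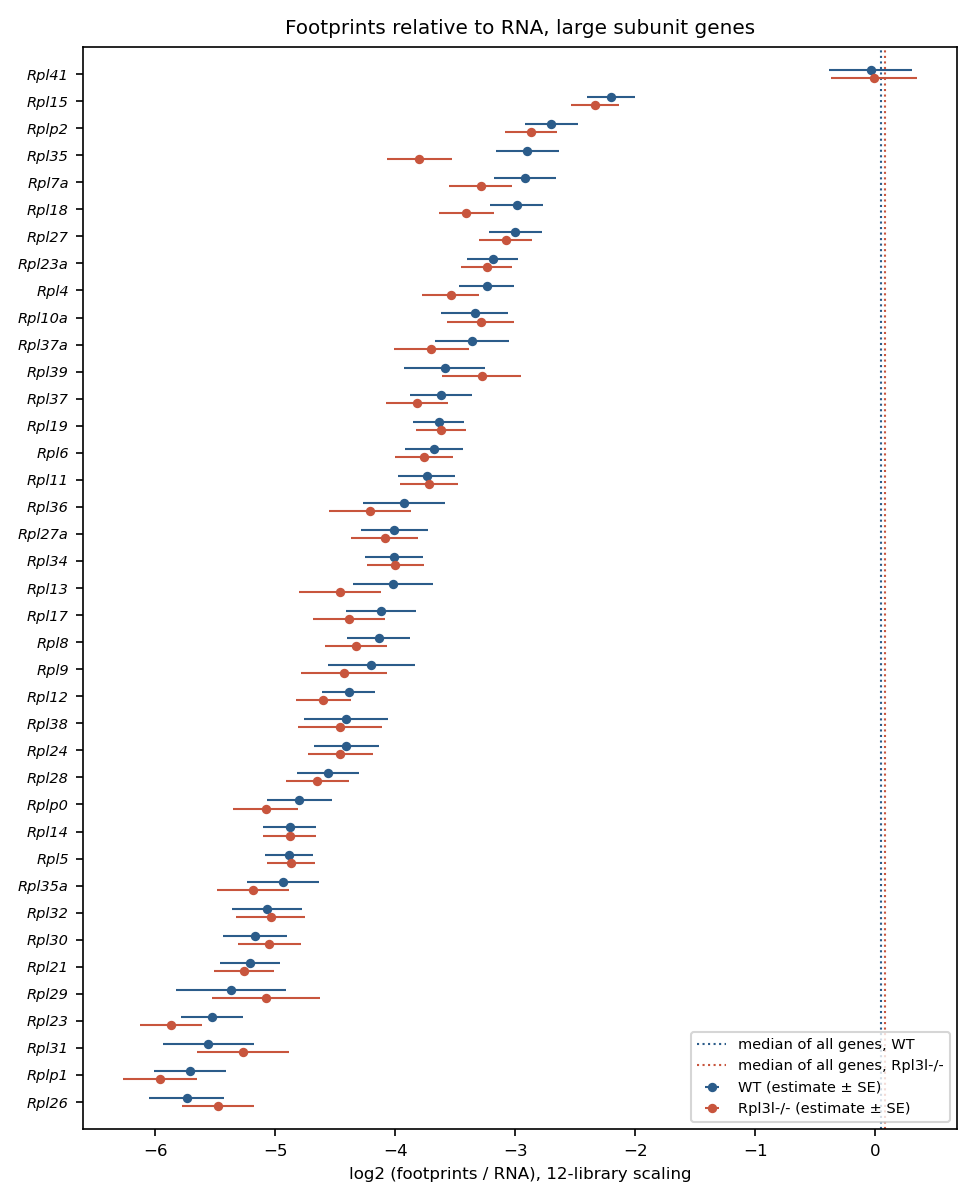
Footprints relative to RNA for 39 members, ordered by the WT estimate. The horizontal axis is the log2 ratio from the 12-library edgeR fit; points and bars are estimates ± SE in WT (blue) and Rpl3l-/- (red), and dotted lines mark the medians of all genes, 0.05 and 0.08. All members but Rpl41 lie between -5.96 and -2.20.

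The lowest ratio in WT was that of *Rpl26* (chromosome 11, 68901635 to 68904533, plus strand, GRCm38, 4 exons). Its RNA stood at 1489, 1165 and 865 CPM in the 3 WT libraries, and its footprints at 47.7, 87.2 and 73.6 CPM. The log2 ratio was -5.74 (SE 0.31, edgeR adjusted p = 1.8e-10), and only 0.298% of all genes tested were lower. *Rplp1*, the most abundant RNA, had 2150, 1760 and 1288 CPM in RNA and 80.8, 142 and 92.6 CPM in footprints, with a ratio of -5.71 (SE 0.30). *Rpl31*, whose protein also sits at the tunnel exit, followed with -5.56 (SE 0.38). *Rpl23*, on the face that meets the small subunit, had -5.53 (SE 0.26). *Rpl29*, one of the genes with shared windows, had -5.37 (SE 0.46).

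At the other end *Rpl41* did not join the other members. Its footprints stood at 32.7, 86.4 and 60.5 CPM in WT and its RNA at 20.2, 26.8 and 11.1 CPM, with WT library 2 highest in both assays. The log2 ratio was -0.04 (SE 0.35, edgeR adjusted p = 0.931), and it was -0.01 in KO. Its RNA rests on 72 to 206 counts per library, and 100% of its coding windows recur in other annotated genes, counted or not. The median of this share over all members was 99.8%. The part of shared sequence in its ratio was not tested. *Rpl41* encodes a basic peptide of the intersubunit bridge. It lies on chromosome 10 (128548114 to 128549305, minus strand), and its coding sequence takes up 78 of 582 transcript bases. With scaling within each assay, which moved the median of all genes to 1.78, its ratio was 1.70 and edgeR called it higher (adjusted p = 0.000294), although it was again close to the median of all genes.

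The next ratios were all far below 0. *Rpl15*, a core protein bound to the RNA of the subunit, had 379, 283 and 323 CPM in WT RNA and 191, 300.2 and 191 CPM in footprints, with a log2 ratio of -2.20 (SE 0.20, edgeR adjusted p = 4.5e-08). *Rplp2*, the partner of *Rplp1* in the stalk, had -2.70 (SE 0.22). *Rpl35* had -2.90 (SE 0.26) and *Rpl7a* -2.92 (SE 0.26). The 3 stalk genes thus spread over much of the range, with *Rplp0*, the stalk base, at -4.80. *Rpl5* and *Rpl11*, whose proteins form the 5S RNA particle, had -4.89 and -3.74.

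The ratio was also read beside shared sequence and length. The 29 members without a window shared with another counted transcript had a median of -4.02, equal to that of all 39. Over any annotated gene, counted or not, a median of 99.8% of a member's windows recurred. The 2 members with the smallest such share, *Rpl8* (11.4%) and *Rpl4* (43.4%), had ratios of -4.14 (SE 0.26) and -3.24 (SE 0.23). All genes with a coding sequence no longer than the 1260 bases of *Rpl4*, the longest member, had a median of -0.33. With footprints per coding kb and RNA per transcript kb, the member median differed from that of all genes by -4.18.

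Across the 39 members, the WT ratio had a Spearman rho of 0.02 with coding length, 0.05 with the windows shared with counted transcripts and 0.15 with those shared with any gene. It had a rho of -0.51 with the RNA level per kb, which enters the ratio itself. These points share libraries and depth, and the values are descriptions. Footprint and RNA libraries were made with different kits, so assay and kit cannot be told apart in the ratio, and their part for these short mRNAs was not tested.

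Because TOP mRNAs are defined by their first bases, the annotated start sites of the members at both ends of the ratio were read from RefSeq (GRCm38.p6). Each window runs 5′ to 3′ on the transcribed strand, from 15 bases before to 15 bases after the annotated start, and capitals mark the longest run of at least 7 bases that are each C or T. The first 3 belong to members with the lowest ratios, the other 5 to those with the highest. *Rplp1* and *Rpl29*, also among the 5 lowest, had no entry.
Rpl26: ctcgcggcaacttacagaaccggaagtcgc
Rpl31: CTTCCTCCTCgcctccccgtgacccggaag
Rpl23: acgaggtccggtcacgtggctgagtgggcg
Rpl41: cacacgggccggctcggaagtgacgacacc
Rpl15: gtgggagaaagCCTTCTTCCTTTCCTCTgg
Rplp2: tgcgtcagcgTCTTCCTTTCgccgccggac
Rpl35: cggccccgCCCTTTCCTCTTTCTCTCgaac
Rpl7a: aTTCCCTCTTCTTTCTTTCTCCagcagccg

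These windows lie at chr11:68901551-68901580 (*Rpl26*, plus strand), chr1:39367836-39367865 (*Rpl31*, plus) and chr11:97782425-97782454 (*Rpl23*, minus). The others lie at chr10:128549154-128549183 (*Rpl41*, minus), chr14:18270972-18271001 (*Rpl15*, minus), chr7:141447636-141447665 (*Rplp2*, plus), chr2:39005117-39005146 (*Rpl35*, minus) and chr2:26910792-26910821 (*Rpl7a*, plus). The RefSeq start was 2 to 9 bases from the start of the counted transcript for *Rpl23* and *Rpl31*, and 43 to 493 bases from it for the other 6.

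No window was read for members on chromosome 18, where *Rpl17* lies. Of the 32 members with an entry that was read, 17 (53.1%) held such a run on the transcribed strand. Of all 32851 entries read the same way, 18.6% did. The 16 members with a run and a ratio had a median log2 ratio of -3.82, and the 14 without a run had -3.97. A run is a description of these letters, and a window without one shows only that these letters are not in that window. A run anywhere in the window was counted, and that of *Rpl31* lies wholly before the annotated start. The share of members with a run is therefore not a share of TOP mRNAs.

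Low footprint ratios were also measured outside the 60S genes. In WT 31 of 31 tested genes of the small (40S) subunit were called lower, with a median log2 ratio of -4.50. Of 15 other TOP mRNAs, which encode elongation and initiation factors and similar proteins, 14 were called lower, with a median of -2.23. Factors that assemble and export the 60S subunit are not encoded by TOP mRNAs as a class. Of 29 tested, 16 were called lower and 4 higher, with a median of -0.88. *Rpl3* had -3.85 and *Rpl3l* -2.38 in WT. Low ratios were not limited to genes of the translation machinery. Of 5 red blood cell markers 5 were called lower, with a median of -2.47. *Hba-a1*, *Hba-a2*, *Hbb-bs* and *Hbb-bt* each had 93% or more of their windows shared with another counted globin transcript, so their ratios are uncertain. *Alas2*, with 0% shared, had -1.86 in WT, and in KO it had -0.67 and was not called. Of 7 fibroblast markers 7 were called higher, with a median of 2.68. No test compared these groups with each other.

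The members moved together between libraries of the same genotype. Each gene's log2 level in a library was compared with its own mean over the 6 libraries of the assay. In footprints 36 of 39 members were highest in WT library 2, where the median deviation was 0.59, and 21 were lowest in WT library 1, where it was -0.40. WT library 3 stood at 0.08, and the KO libraries 1 to 3 at -0.22, 0.07 and -0.10. The KO libraries thus lay between the extremes of the WT libraries. For comparison, 21.3% of all tested genes were highest in WT library 2 and 23.9% lowest in WT library 1.

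*Rpl7a*, which encodes a protein bound to the ribosomal RNA, shows the size of this spread. Its footprints stood at 171, 385 and 244 CPM in WT libraries 1 to 3, and at 160, 249 and 214 CPM in KO. *Rpl36* stood at 88.7, 253 and 134 CPM in WT and at 99.7, 106 and 114 CPM in KO. Both the highest and the lowest library of *Rpl36* were WT, and for *Rpl7a* WT library 1 lay just above the lowest, KO library 1. Summed over members, footprints ran from 3594 CPM in WT library 1 to 6902 CPM in WT library 2, and from 3950 to 4642 CPM in KO.

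RNA varied less and in another order. With TMM scaling 35 of 40 members were highest in WT library 1 (median deviation 0.30) and 17 were lowest in WT library 3 (-0.22), while KO libraries 1 to 3 stood at -0.18, 0.19 and -0.15. The RNA shift depended on the scaling. On the total without mitochondrial genes, WT library 1 had a median deviation of 0.08 and was highest for 13 members, while the median of all genes there was -0.21. The footprint shift did not depend on it in this way, with 0.57 in WT library 2 and -0.43 in WT library 1.

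**Figure D3:**
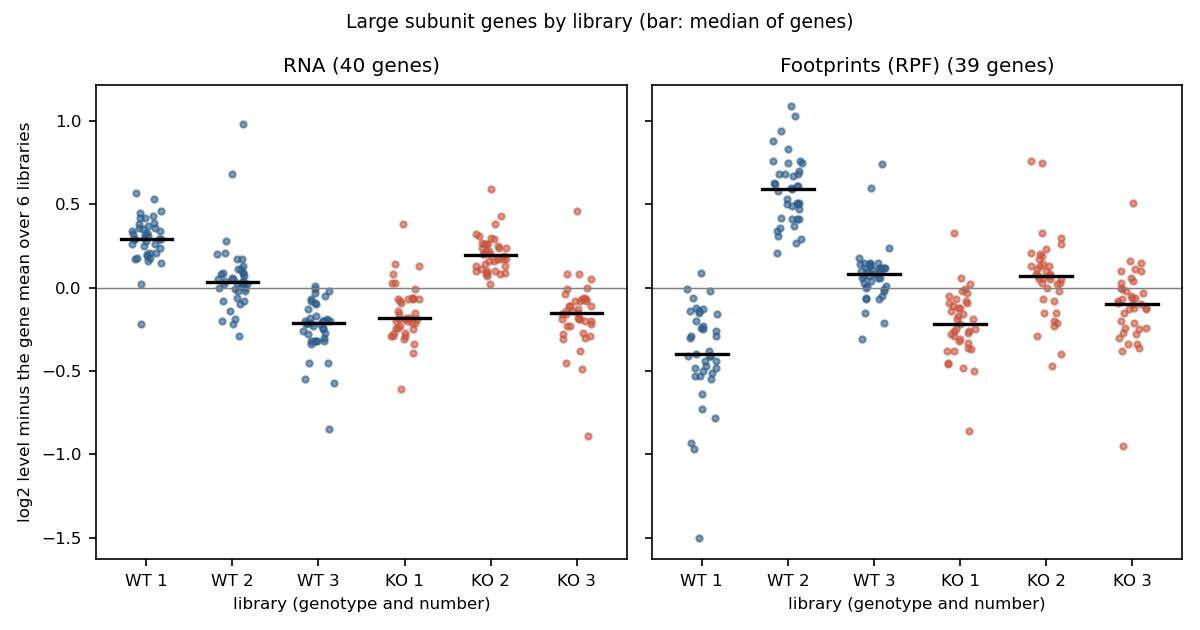
Level of each member in each library. The vertical axis is the log2 CPM minus the gene's mean over the 6 libraries of the assay, each point is 1 gene, black bars are medians, and WT libraries are blue and Rpl3l-/- libraries red. In footprints WT 2 (median 0.59) and WT 1 (-0.40) lie at opposite ends, with all 3 KO libraries between them.

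Small subunit genes showed the same order in footprints, with 28 of 31 highest in WT library 2 (median deviation 0.56) and 20 lowest in WT library 1 (-0.39). Adipocyte and red blood cell markers also differed between these libraries. Adipocyte markers summed to 448 CPM in footprints of WT library 2, 97.1 CPM in WT library 1 and 171 CPM in WT library 3, and to 141 to 288 CPM in KO. Between 4 and 5 of the 5 adipocyte markers had counts in each footprint library. Red blood cell markers summed to 353 CPM in WT library 1 and 925 and 1502 CPM in the other WT footprint libraries, and to 661 to 1572 CPM in KO. Cardiomyocyte markers ranged only from 104963 to 115232 CPM over the 6. Other lists varied less in the WT footprint libraries than adipocyte and red blood cell markers. Fibroblast markers summed to 3237 to 3816 CPM there, endothelial markers to 1636 to 2002 CPM and mural markers to 883 to 1125 CPM. The part of adipocyte and red blood cell RNA in the spread of the members was not tested.

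Rpl3l-/- and WT ventricles were compared to ask whether loss of the paralog goes with other levels of the remaining large subunit mRNAs. In RNA edgeR's quasi-likelihood test called 0 of 40 members, 0 had an unadjusted p below 0.05, and DESeq2 called 0. Of all 8379 genes tested 0.0119% passed, a single gene, *Rpl3l* itself. The member median was a log2 difference of -0.09, against -0.01 for all genes, and 31 of 40 members lay below 0.

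RNA differences spanned -0.33 to 0.26. At the low end were *Rpl31* (-0.33, SE 0.25), *Rpl41* (-0.31, SE 0.33), *Rpl36* (-0.27, SE 0.25) and *Rpl32* (-0.21, SE 0.23). At the high end were *Rpl35* (0.26, SE 0.22), *Rpl23a* (0.05, SE 0.16), *Rpl4* (0.05, SE 0.18) and *Rplp2* (0.04, SE 0.21). *Rpl31* stood at 1195, 961 and 694 CPM in the WT libraries and at 680, 983 and 609 CPM in KO, so that the genotypes overlapped. No member had all KO libraries on 1 side of all WT libraries, against 3.19% of all genes with KO below and 4.14% with KO above. Without WT library 1 the median was 0.06 relative to all genes and only 11 of 40 members lay below 0.

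Footprint estimates lay further from 0, with no member called. In edgeR's quasi-likelihood test 0 of 39 members were called, against 0.00897% of all 11153 genes tested, again *Rpl3l* alone, and DESeq2 called 0 members. The median log2 difference of the members was -0.22 against 0.00 for all genes, and 36 of 39 lay below 0. At an unadjusted p below 0.05 in edgeR there were 3: *Rpl23* (0.013), *Rpl18* (0.014) and *Rpl36* (0.047), each with an adjusted p of 0.834. That is 7.69% of the members, against 5.96% of all genes tested, a share near the background.

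The direction rested on single WT libraries. Without WT library 2, where the members were highest, 11 of 39 lay below 0 and the median relative to all genes was 0.03. Without WT library 1, where they were lowest, all 39 lay below 0 and it was -0.42. The other 4 libraries left 32 to 39 members below 0 when each was left out.

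*Rpl35* (chromosome 2, 39001580 to 39005624, minus strand, 4 exons), at the rim of the tunnel exit, had the lowest footprint difference. It stood at 12.1, 21.4 and 10.8 CPM in WT and at 10.4, 8.50 and 8.59 CPM in KO. All 3 KO libraries lay below all 3 WT libraries, by a small margin. The log2 difference was -0.68 (SE 0.33, edgeR adjusted p = 0.834). These values rest on 41 to 81 footprint counts per library, and 91.9% of its windows are shared.

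*Rpl23* (chromosome 11, 97777527 to 97782437, minus strand, 5 exons) was the other member without overlap. Its footprints stood at 92.0, 143 and 103 CPM in WT and at 76.7, 89.0 and 72.5 CPM in KO, from 346 to 607 counts per library. The log2 difference was -0.50 (SE 0.18). Having 2 of 39 members with KO wholly below WT, and 0 wholly above, compares with 5.77% and 6.27% of all genes tested, so this share is near the background.

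The other low differences were those of *Rpl36* (-0.57, SE 0.26), *Rpl18* (-0.54, SE 0.19) and *Rpl13* (-0.53, SE 0.29). *Rpl18* stood at 169, 312 and 204 CPM in WT and at 165, 133 and 173 CPM in KO. Its KO library 3 lay just above WT library 1, so the genotypes overlapped. *Rpl13* turned to 0.06 without WT library 2.

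At the high end were *Rpl39* (0.28, SE 0.35), *Rpl29* (0.15, SE 0.47), *Rpl26* (0.09, SE 0.22) and *Rpl10a* (-0.02, SE 0.24). *Rpl39*, a small protein of the tunnel wall, stood at 8.43, 22.1 and 17.6 CPM in WT and at 13.7, 28.4 and 15.9 CPM in KO, with full overlap. SEs of the 39 footprint differences ran from 0.15 (*Rpl19*, *Rpl27*) to 0.47 (*Rpl29*).

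**Figure D4:**
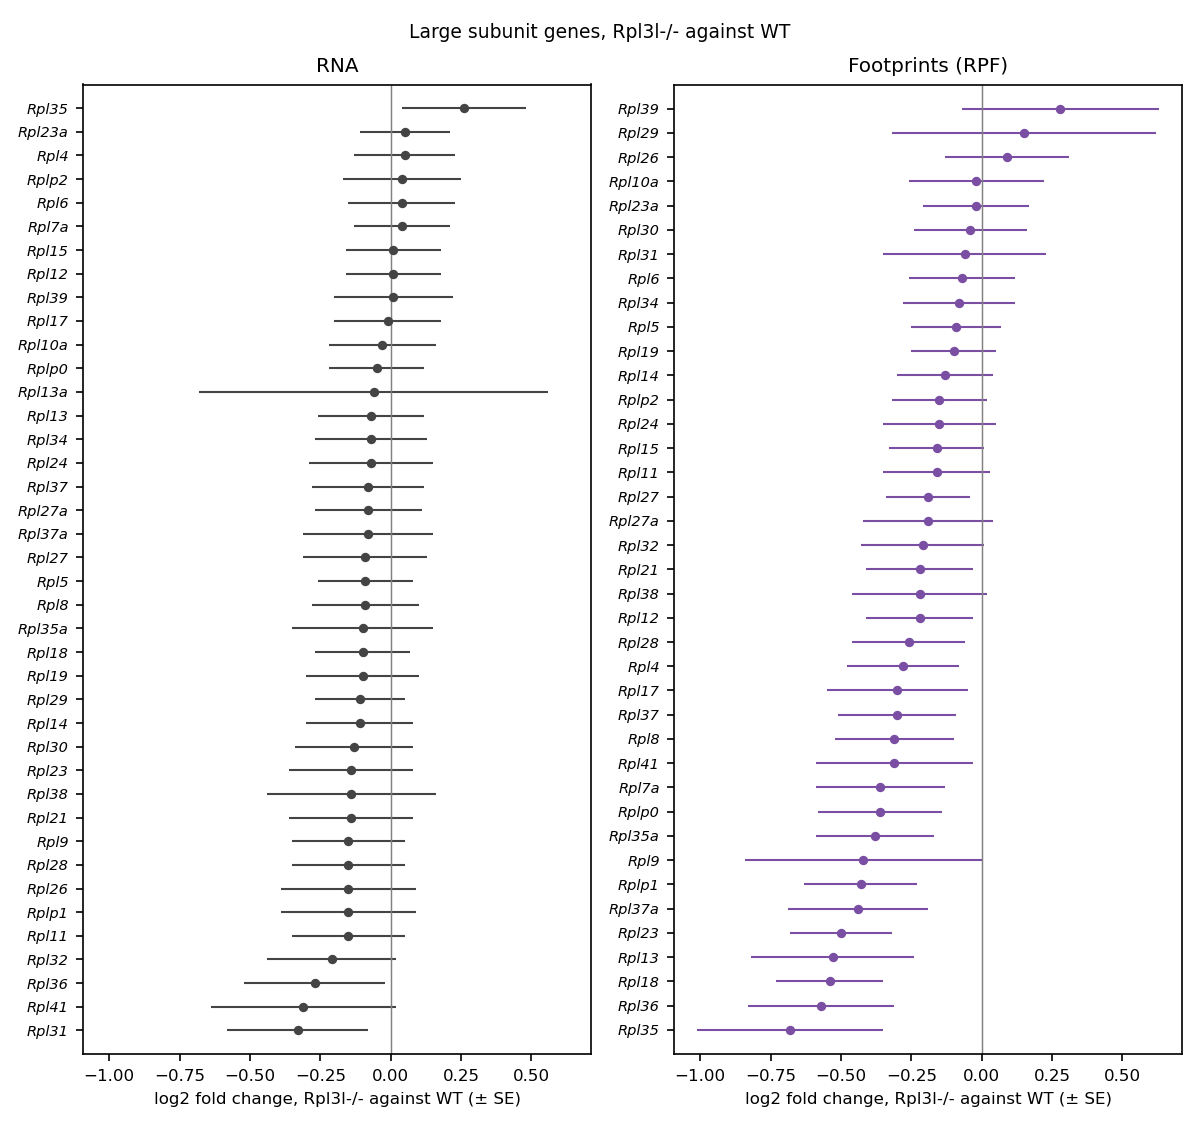
Rpl3l-/- against WT for each member. The horizontal axis is the log2 fold change with its SE from edgeR fits to 6 libraries, RNA for 40 genes on the left and footprints for 39 on the right. RNA estimates run from -0.33 to 0.26 and footprint estimates from -0.68 to 0.28, and no member passed the test in either assay.

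The change in footprints relative to RNA, or translation efficiency (TE), was tested as an interaction of assay and genotype. In edgeR 0 of 39 members passed, as did 0% of the 8044 genes, and DESeq2 called 0 members. A single member, *Rpl35*, had an unadjusted p below 0.05 in edgeR (0.024, adjusted p = 0.9997), or 2.56% of the members against 3.73% of all genes. Its log2 difference was -0.90 (SE 0.36), made up of the footprint values above and RNA at 41.1, 30.1 and 32.3 CPM in WT and 30.3, 41.8 and 51.1 CPM in KO. The genotypes overlapped in RNA.

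The member median in TE was -0.08 against 0.01 for all genes, with 27 of 39 below 0, or 33 of 39 with scaling within each assay. After *Rpl35*, the lowest were *Rpl13* (-0.44, SE 0.42), *Rpl18* (-0.42, SE 0.29) and *Rpl7a* (-0.37, SE 0.34). The highest were *Rpl39* (0.31, SE 0.44), *Rpl31* (0.29, SE 0.45), *Rpl29* (0.29, SE 0.56) and *Rpl26* (0.26, SE 0.36). All 39 lay below 0 without the libraries of WT number 1, and 8 did without those of WT number 2. In TE the 4 high ones turned negative without number 1, while *Rpl13* and *Rpl7a* turned positive without number 2.

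Related gene groups were read in the same fits, in which 2.54%, 5.96% and 3.73% of all genes had an unadjusted p below 0.05 in RNA, footprints and TE. Of 31 tested small subunit genes 0 were called in any of the 3 comparisons by edgeR; 0, 3 and 1 were at that level. Their median log2 differences were -0.08 in RNA, -0.22 in footprints and -0.12 in TE. For the 60S assembly and export factors the medians were -0.07, 0.03 and 0.10, with 0 called and 0, 2 and 0 at that level. For the 15 other TOP mRNAs they were 0.02, -0.11 and -0.12, with 0 called and 0, 1 and 1 at that level. Among the large subunit paralogs outside the members, *Rpl3l* alone was called, with -3.10 in RNA (edgeR adjusted p = 8.2e-05) and -4.76 in footprints (2.5e-07). Of 8, 7 and 7 paralogs tested, *Rpl3l* included, 2, 2 and 1 were at that level. *Rpl3* had 0.63 (SE 0.18) in RNA and 0.62 (SE 0.22) in footprints, with edgeR adjusted p of 0.999 and 0.834. Its unadjusted edgeR p was 0.0047 and 0.012. All KO libraries of *Rpl3* lay above all WT libraries in both assays, as for 4.14% and 6.27% of all genes tested. In footprints the margin was small, with KO library 1 and WT library 2 both near 120.2 CPM.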

How the data were processed

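Ribo-seq and RNA-seq were done on 12 libraries of left ventricle. The deposited files hold raw counts per transcript name; per the submitters' processing notes, reads passed through cutadapt 1.18 and Bowtie2 2.4.2. The counting tool, genome build, annotation, use of strand and treatment of reads with several origins are not given in the sources used here. Names were matched to GENCODE M21 (GRCm38). Genes passing filterByExpr (minimum count 10) were tested with edgeR 4.0.16 (R 4.3.3): TMM scaling, quasi-likelihood test, Benjamini-Hochberg adjustment at 0.05 over all genes tested. RNA and footprints were fitted in 6 libraries each, and TE and the footprint to RNA contrasts in 1 fit of 4 groups. TE needed genes passing in both assays. Log2 levels per library used CPM plus 0.5. DESeq2 1.42.0, other scalings and filters, a replicate block and leaving out replicates were tried.

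Members and gene lists were chosen with earlier results of these data known. All members were counted, and those named had the 4 highest and 4 lowest differences between genotypes, the 5 highest and 5 lowest ratios, or the 3 highest and lowest levels per kb; others illustrate a role or a spread and were chosen after their values were seen. Groups follow the titles. The fits were checked on simulated counts.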

Additional observations from a re-analysis of the deposited data

How the results depend on the processing

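The count of members called was 0 between genotypes in all 3 comparisons under every alternative run, and 38 or 39 members were called with fewer footprints than RNA in both genotypes. Below 0 lay 11 (without WT 1) to 37 (without KO 2) of 40 members in RNA, 11 (without WT 2) to 39 (without WT 1 or KO 2) in footprints, and 8 (without WT 2) to 39 (without WT 1) in TE. Named genes whose sign changed when a replicate was left out ranged as follows. In RNA, *Rplp2* ran from -0.10 to 0.23, *Rpl4* from -0.04 to 0.17 and *Rpl23a* from -1.9e-05 to 0.14. In footprints, *Rpl13* ran from -0.81 to 0.06, *Rpl10a* from -0.30 to 0.38, *Rpl26* from -0.12 to 0.28, *Rpl29* from -0.29 to 0.52 and *Rpl39* from -0.11 to 0.58. In TE, *Rpl13* ran from -0.82 to 0.15, *Rpl7a* from -0.72 to 0.07, *Rpl26* from -0.15 to 0.50, *Rpl29* from -0.22 to 0.70, *Rpl31* from -0.25 to 0.70 and *Rpl39* from -0.16 to 0.60. The WT footprint ratio of *Rpl41* ran from -0.36 to 0.25, and was 1.70 with TMM within each assay, which moved the median of all genes to 1.78. In footprints *Rpl10a* was 0.0011 in a fit of all 12 libraries. The cause of these changes was not tested beyond the smaller number of libraries.

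With the replicate number as a replicate block, *Rpl10a* was 0.08 in footprints, and 30 RNA, 33 footprint and 27 TE members lay below 0, with 0 called. Same-numbered WT and KO libraries deviated together with r of -0.20, 0.36 and 0.41 in RNA and 0.06, 0.03 and 0.00 in footprints. The numbers were therefore not taken as pairs. For RNA and footprint libraries of the same number, r over genes ran from 0.08 to 0.15. Red blood cell markers kept the same order in both assays. In WT they summed to 1928, 3456 and 4317 CPM in RNA and 353, 925 and 1502 CPM in footprints. In KO they summed to 5270, 3944 and 1263 CPM in RNA and 1572, 1071 and 661 CPM in footprints. Whether such libraries came from 1 heart was not tested, and the main fits took them as unpaired. Medians of the WT ratio limited to members without shared windows (-4.07 relative to all genes) or taken per kb (-4.18) were alternatives chosen after seeing the data. With 3 libraries a group the SEs of the footprint differences ran from 0.15 to 0.47, and genes such as *Rpl35* rest on 41 to 81 footprint counts a library.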
